A study of Mus musculus with 8 samples.

Results

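A set of 6 genes through which granulosa cells hold the oocyte in meiotic arrest and stay coupled to it was examined in ATAC-seq peak lists of mouse granulosa cells. The members are Nppc, Npr2, Kitl, Gja1, Gja4 and Gjc1, 6 of 21627 protein-coding genes, and they were chosen by name. Peaks were taken from each gene body and 50 kb on either side, in GRCm38 coordinates. Peaks of the 8 libraries that shared at least 1 bp were merged into regions, and the 6 windows held 69 of the 98245 regions found in all.

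Granulosa cells are the somatic cells of the ovarian follicle, and ATAC-seq marks open chromatin by where the transposase Tn5 cuts. All mice were 21 days old and received 5 IU of eCG (also called PMSG), which drives follicle growth. After 46 h they were killed, or were given 5 IU of hCG, which mimics the surge of LH (luteinising hormone), and were killed 6 h later. Each group had 2 libraries, and each library pooled the cells of 2 to 3 mice. The LH experiment used wildtype F1 mice of CBA x C57BL/6, with a group titled hCG and a group titled PMSG. The PR experiment used the strain C.129S7(B6)-Pgrtm1Bwo/OmcJ, in which Pgr, encoding the progesterone receptor, is targeted; its wildtype (WT) and knockout (KO) groups were both collected after hCG. The time tags of the LH libraries (0 h for hCG, 6 h for PMSG) go against their titles and against their source names, which are peri-ovulatory for hCG and pre-ovulatory for PMSG. Every direction between hCG and PMSG below follows the titles. In the PR experiment every library is tagged 6 h, although its source name is pre-ovulatory. Strain and, by the peak names, perhaps processing differ between the experiments and cannot be told apart, so groups were compared within an experiment.

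C-type natriuretic peptide, the product of Nppc, binds the guanylyl cyclase NPR2 on neighbouring granulosa and cumulus cells and raises cyclic GMP. Cyclic GMP passes through gap junctions into the oocyte, where it inhibits the phosphodiesterase PDE3A, so that cyclic AMP stays high and meiosis stays arrested. The LH surge lowers follicular cyclic GMP and closes gap junctions. KIT ligand, the product of Kitl, signals from granulosa cells to the receptor KIT on oocytes and theca cells. Gja1 encodes Cx43, the main connexin between granulosa cells, Gja4 encodes Cx37 of the oocyte-granulosa junctions, and Gjc1 encodes Cx45.

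The start of transcription of 5 members lay in RefSeq's promoter table of GRCm38.p6, and all 5 starts were under a peak in all 8 libraries. The 250 bases before 4 of these starts are printed because they lie under or beside those peaks and differ in base composition and in the motif letters they hold. Each is written 5′ to 3′ along the gene, and capitals mark every match to the motifs searched.
Nppc: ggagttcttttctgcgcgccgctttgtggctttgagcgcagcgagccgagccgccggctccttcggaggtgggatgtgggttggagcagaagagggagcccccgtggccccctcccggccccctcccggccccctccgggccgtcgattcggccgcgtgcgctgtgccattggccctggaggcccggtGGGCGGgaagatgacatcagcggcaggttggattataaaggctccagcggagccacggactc
Kitl: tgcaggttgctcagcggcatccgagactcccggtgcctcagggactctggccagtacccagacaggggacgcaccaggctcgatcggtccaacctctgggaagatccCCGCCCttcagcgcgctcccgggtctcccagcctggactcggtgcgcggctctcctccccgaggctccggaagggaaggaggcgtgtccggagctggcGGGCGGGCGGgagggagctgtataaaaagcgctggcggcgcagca
Gja1: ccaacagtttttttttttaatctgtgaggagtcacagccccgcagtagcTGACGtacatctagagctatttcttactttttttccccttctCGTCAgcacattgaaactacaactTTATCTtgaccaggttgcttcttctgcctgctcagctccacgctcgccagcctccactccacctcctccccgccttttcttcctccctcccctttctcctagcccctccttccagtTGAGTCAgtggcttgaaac
Gja4: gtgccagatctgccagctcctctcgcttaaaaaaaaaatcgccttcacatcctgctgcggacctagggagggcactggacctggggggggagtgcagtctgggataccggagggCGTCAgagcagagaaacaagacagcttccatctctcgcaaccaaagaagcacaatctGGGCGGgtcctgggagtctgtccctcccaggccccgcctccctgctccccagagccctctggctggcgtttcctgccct

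The Nppc stretch is chr1:86670574-86670823 on the minus strand, with 69.2% G or C and 24 CG pairs. The Kitl stretch is chr10:100015571-100015820 on the plus strand, with 69.2% G or C and 23 CG pairs. Gja1's stretch, chr10:56377050-56377299 on the plus strand, had 50% G or C and 6 CG pairs, the lowest of both among the 5 members. Gja4's stretch, chr4:127314040-127314289 on the minus strand, had 61.2% G or C and 9 CG pairs. Npr2's promoter, not printed, had 64.4% and 13.

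A set of 10 motifs was searched on both strands in 300 bases, from 250 before to 50 after the start, of 17273 promoters. Gja1 alone of the 5 held the AP-1 letters TGANTCA, as TGAGTCA from −19 to −13 bases of its start, and 7.14% of all promoters held them. It also held the GATA letters AGATAA, read on the other strand as TTATCT from −135 to −130, as did 1728 of the 17273 promoters. The core letters TGACG of the cyclic AMP response element stood in Gja1 from −201 to −197 and, on the other strand, from −159 to −155. In Gja4 it stood from −136 to −132 on the other strand, and 24.1% of promoters held it. The SP/KLF letters GGGCGG stood once in Nppc, once in Gja4 and 3 times in Kitl, where 2 of the matches overlap by 2 bases, and 46.9% of promoters held them. None of the 5 windows held the letters of the full cyclic AMP response element, TGACGTCA (2.37% of promoters), RUNX, TGTGGT (14.9%), NR5A, AAGGTCA (4.06%), forkhead, GTAAACA (2.98%), or C/EBP, TTGCNNAA (10.3%). The palindromic element of the progesterone and glucocorticoid receptors was in none of the 5 windows and in 0.446% of promoters. These are matches of letters in 1 window and say nothing of binding.

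The libraries differed in how much was called. They held between 55654 intervals (KO replicate 2) and 84313 (WT replicate 2), and covered between 29.8 Mb (PMSG replicate 1) and 43.9 Mb (WT replicate 1). Without read numbers in the lists, the depth behind a peak is unknown. A peak covered between 56.4% and 59.2% of the 17273 starts in each library, against between 1.97% and 2.98% after the starts were shifted by 10 kb. Of 9 granulosa markers, between 5 and 6 had a peak over the start in each library, Foxl2, Fshr and Esr2 in all 8. The starts of Inha and Nr5a2 in the table had none. Of 11 oocyte markers, Kit and Gdf9 had a peak at the start in all 8 libraries and the other 9 in no library. For Gdf9, whose start is not in the table, a peak over either gene end was counted. Between 1 and 3 of 6 theca and stroma markers, 1 and 2 of 4 endothelial markers and 0 and 1 of 4 immune markers had one, and the part of such cells in the results below was not tested. A peak over the start of Pgr, the targeted gene, was listed in all 4 PR libraries, KO included, and in none of the 4 LH libraries. The start peak therefore gives no check of the knockout label. Elsewhere in the Pgr window 2 of 13 regions were WT-only and 1 was KO-only.

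Regions shared by all libraries were the largest class at the 6 genes. All 8 libraries held 30 of the 69 regions (43.5%), and 37.9% of all regions were held so. These were 5 of 12 regions at Nppc, 7 of 13 at Npr2, 5 of 19 at Kitl, 5 of 14 at Gja1, 2 of 3 at Gja4 and 6 of 8 at Gjc1. The median window of a protein-coding gene held 8 regions. With 19 regions Kitl stood at the 92.3 percentile of all genes, and with 3 regions Gja4 at the 20.7 percentile. These percentiles rank counts per window and do not allow for window length. The Kitl window spans 184.8 kb, and those of the other members 102.6 to 122.4 kb.

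**Figure D1:**
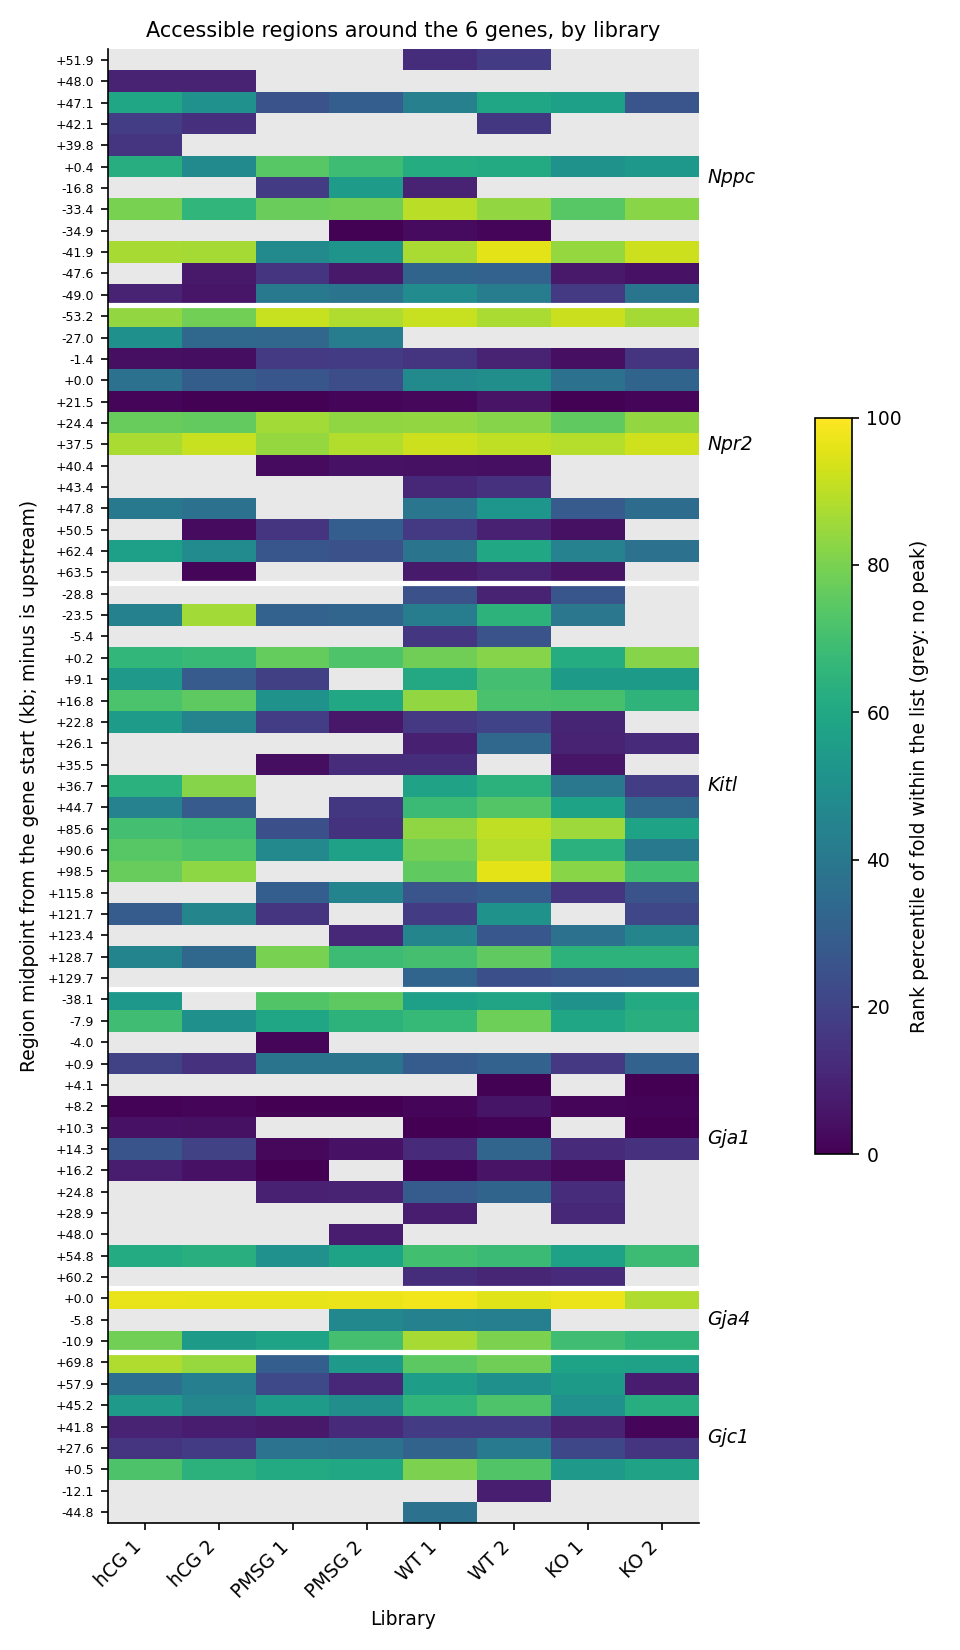
Each row is 1 of the 69 regions, labelled by its midpoint's distance in kb from the gene's start (for Gjc1, whose strand is not in the table used, from its higher-coordinate end), and each column is a library. Colour gives the percentile rank of the region's fold enrichment within that library's list and grey marks no peak; the row at the Gja4 start is yellow in all 8 libraries, and Kitl holds the longest block of partly grey rows.

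Few regions at the 6 genes separated the groups. A region was called group-only where 2 of 2 libraries of a group held it and 0 of 2 of the other group in the same experiment. In the LH experiment 6 of 69 regions (8.70%) were hCG-only, against 14.5% of all regions, and 5 (7.25%) were PMSG-only, against 8.49% of all. In the PR experiment 6 (8.70%) were WT-only, against 11.2% of all, and 0 were KO-only, against 0.0743% of all. The PMSG-only, WT-only and KO-only shares were near those of all regions, so they are no result about the 6 genes. The hCG-only share was lower but moved with the setting. The hCG-only count was 10 of 69 when peaks had to cover 50% of a region. With a −log10 q of 20 or more it was 9 of 64, and with a flank of 10 kb 2 of 28. The share stayed lower in the shortened lists described below. The share of all regions was not computed for that cover, q or flank, so the hCG-only share is no result either. Without KO replicate 1, 14 of 69 (20.3%) were WT-only, against 18.4% of all, and without PMSG replicate 1, 9 of 68 (13.2%) were PMSG-only, against 11.2% of all. The hCG-only regions were 2 at Nppc, 2 at Kitl, 1 at Npr2 and 1 at Gja1. PMSG-only regions were 2 at Kitl and 1 each at Nppc, Npr2 and Gja1. WT-only regions were 2 at Nppc, 2 at Npr2, 1 at Kitl and 1 at Gja4. Gjc1 had no group-only region with all peaks.

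List lengths differ most between WT and KO. With the 55654 intervals of highest fold from every list, 59 regions remained in the windows. Then 5 (8.47%) were hCG-only against 13.6% of all, 8 (13.6%) PMSG-only against 11.9%, 1 (1.69%) WT-only against 3.64% and 5 (8.47%) KO-only against 3.54%. With the same number taken by −log10 q instead, a choice made after seeing the data, 5 of 60 (8.33%) were hCG-only (14.3% of all), 7 (11.7%) PMSG-only (12.3%), 1 (1.67%) WT-only (2.34%) and 3 (5%) KO-only (2.1%). In the 6 windows KO-only regions thus outnumbered WT-only regions at equal list length, the reverse of the full lists. Every one of these KO-only regions was held by both WT libraries in the full lists. Shortening cut the WT lists from 80137 and 84313 intervals, and left KO replicate 2 uncut. The call there thus means absence from the shortened WT lists only. Over all regions WT-only regions remained the more numerous, at 3069 against 2990 by fold and 1912 against 1713 by −log10 q. Of the 17 group-only calls at the 6 genes with all peaks, 8 were made again by fold, 8 by −log10 q and 5 by both. These 5 were hCG-only in Tmem8b near Npr2 and at +36.7 and +98.5 kb of Kitl, and PMSG-only at −16.8 kb of Nppc and +115.8 kb of Kitl. None of the 6 WT-only calls was made again by both; that at −5.8 kb of Gja4 was made again by fold and that at +40.4 kb of Npr2 by −log10 q.

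**Figure D2:**
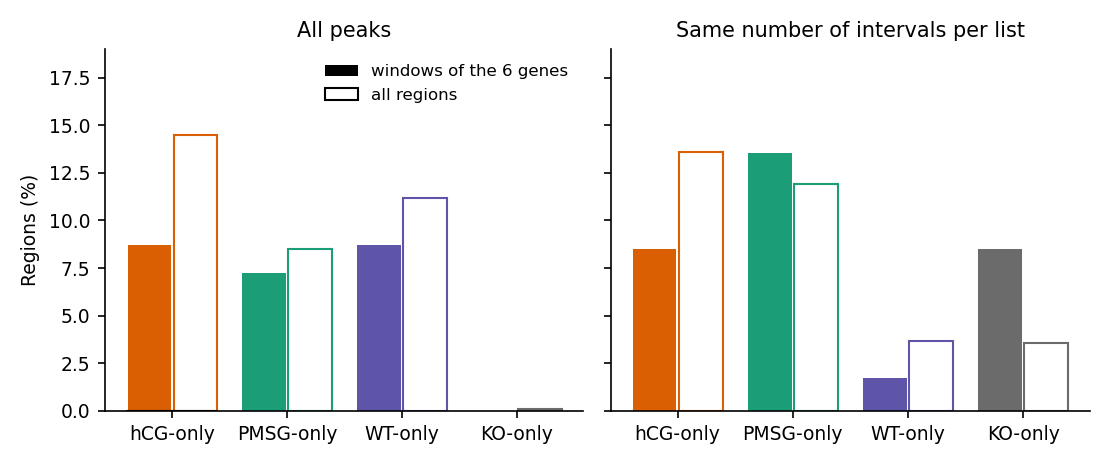
Bars give the percentage of regions called only in 1 group, filled for the windows of the 6 genes and open for all regions, with all peaks (left) and with the 55654 intervals of highest fold from every list (right). With all peaks no filled bar exceeds its open bar. At equal length the KO-only bar of the 6 genes is 8.47% and the WT-only bar 1.69%, and both WT libraries held those KO-only regions in the full lists.

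Presence over all 4 groups gave a further description. All 6 hCG, WT and KO libraries, the groups that received hCG by title or design, held 3 of the 69 regions (4.35%) that neither PMSG library held, and 5.88% of all regions showed this pattern. Of these, 1 lies in the Npr2 window and 2 at Kitl. The reverse pattern, all 6 PMSG, WT and KO libraries without either hCG library, was found in 1 region (1.45%), at Kitl, against 1.12% of all. The LH libraries alone held 1 region (Npr2 window; 0.368% of all), and the PR libraries alone held 2 (both at Kitl; 0.667% of all). Both hCG libraries and none of the 6 others held 1 region, at Nppc (1.45%, against 1.04% of all), and both PMSG libraries and none of the 6 others held 0 (against 1.68% of all). Both WT libraries and no other held 3 (4.35%, against 3.97% of all). A single library held 5 of the 69 regions (7.25%), against 14.3% of all.

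Nppc, the ligand gene, lies at chr1:86666293-86670573, and its window contains part of Dis3l2, an exoribonuclease gene, and no other coding gene. The widest region was the one over the Nppc start, chr1:86669328-86671072, at 1745 bp. Its peak covered 1501 and 1729 bp in the hCG libraries, 1519 and 1544 bp in PMSG, 1689 and 1745 bp in WT and 1733 and 1715 bp in KO. The values of hCG and PMSG overlapped, and so did those of WT and KO. Its fold enrichment, the authors' ratio of a summit to the local background, was 9.7 and 8.4 in hCG, 12.7 and 12.2 in PMSG, 9.3 and 9.5 in WT and 8.5 and 8.1 in KO. These values put it at the 62 and 47, 74 and 69, 62 and 61, and 51 and 53 percentile of the respective lists.

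The 5 group-only regions at Nppc were all distal, with folds of 10.2 or less. The hCG-only region at +48.0 kb from the start, chr1:86622400-86622673, was held by no WT or KO library and had a fold of 4.4 and 4.6, near the 10 percentile of both lists; it was hCG-only under neither equal-length setting. Another hCG-only region, at +42.1 kb (chr1:86628342-86628578), had a fold of 5.2 and 5.1 and was also held by WT replicate 2. The PMSG-only region at −16.8 kb, chr1:86687248-86687548, had a fold of 5.9 and 10.2 and was also held by WT replicate 1. WT-only regions lay at +51.9 kb (chr1:86618603-86618721, fold 4.3 and 4.7) and at −34.9 kb in Dis3l2 (chr1:86705377-86705654, fold 3.0 and 2.6), and neither was WT-only at equal list length by fold or by −log10 q. The highest mean percentile in the window, 79.2, belonged to a region in Dis3l2 at −41.9 kb, chr1:86712042-86712891. Its percentile was 87 and 87 in hCG, 48 and 52 in PMSG, 87 and 96 in WT and 84 and 92 in KO. The PMSG libraries thus ranked it below all 6 others, although ranks from lists of different length show no change in themselves. It covered 850 and 782 bp in hCG against 463 and 434 bp in PMSG, and the groups did not overlap.

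Npr2, the receptor gene, lies at chr4:43629015-43651437 with 7 other coding genes in its window. The region over its start, chr4:43631134-43632672, was the widest at 1539 bp. It covered 1430 and 1437 bp in hCG, 1288 and 1384 bp in PMSG, 1501 and 1493 bp in WT and 1446 and 1207 bp in KO. Each PMSG value was below both hCG values and each KO value below both WT values; KO replicate 2 had the lowest. Another region within the gene body, at −1.4 kb from the table's start (chr4:43630251-43630814), was also held by all 8 libraries, with folds from 3.5 to 6.0.

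The hCG-only region of the Npr2 window, chr4:43679407-43680137, lies in Tmem8b at +47.8 kb. Its fold was 7.2 and 7.5 in hCG, 6.6 and 8.2 in WT and 6.3 and 6.4 in KO, and no PMSG library listed it. Peaks covered between 610 and 715 bp of it in those 6 libraries. A region of 155 bp or less at +40.4 kb, chr4:43672224-43672378, was both PMSG-only and WT-only, with folds from 3.2 to 4.4. A WT-only region at +43.4 kb, chr4:43675277-43675413, had a fold of 4.2 and 4.4. Both also lie in Tmem8b. The best-ranked region of the window was over the start of Tmem8b, chr4:43668902-43669974, with a mean percentile of 89.4. The region held by the LH libraries alone, chr4:43604633-43605214 at −27.0 kb, had folds from 7.1 to 8.6.

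Kitl spans 84.8 kb at chr10:100015615-100100416, with no other coding gene in its window. The region over its start, chr10:100015419-100016695, was both the widest (1277 bp) and the best ranked on average (mean percentile 73.3). Its fold was 10.1 and 10.8 in hCG, 13.1 and 12.8 in PMSG, 12.0 and 13.6 in WT and 9.8 and 12.3 in KO. Peaks covered 1190 and 1180 bp of it in hCG, 1072 and 868 bp in PMSG, 1242 and 1212 bp in WT and 1277 and 1231 bp in KO. The PMSG values lay below both hCG values, and WT and KO overlapped.

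Kitl had 5 group-only regions, as many as Nppc, and among them 3 that all 4 PR libraries held. A region past the end of the gene, chr10:100114117-100114449 at +98.5 kb, was hCG-only and was held by all 4 PR libraries. Its fold was 11.6 and 13.0 in hCG, 11.5 and 18.3 in WT and 12.6 and 10.2 in KO. These folds stood between the 70 and the 96 percentile of their lists, and neither PMSG library listed a peak there. The hCG-only region in the gene body at +36.7 kb, chr10:100052268-100052724, had a fold of 9.9 and 12.8 in hCG, 8.61 and 9.95 in WT and 7.4 and 5.1 in KO. Peaks covered 309 and 279 bp of it in hCG, 364 and 365 bp in WT, and 437 and 131 bp in KO, so the KO libraries lay on either side of the rest.

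The PMSG-only regions of Kitl had lower folds. At +35.5 kb, chr10:100051125-100051479 had a fold of 4.0 and 5.5 in PMSG, and WT replicate 1 and KO replicate 1 also held it. At +115.8 kb, chr10:100131401-100131849 had a fold of 7.1 and 8.9 in PMSG, 5.4 and 5.7 in WT and 5.0 and 5.6 in KO, and no hCG library held it. The WT-only region at −5.4 kb, chr10:100010355-100010553, had a fold of 4.6 and 5.4. Regions at +26.1 and +129.7 kb were held by the PR libraries alone. KO replicate 2 alone lacked the regions at −23.5 and +22.8 kb, which the other 7 libraries held.

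**Figure D3:**
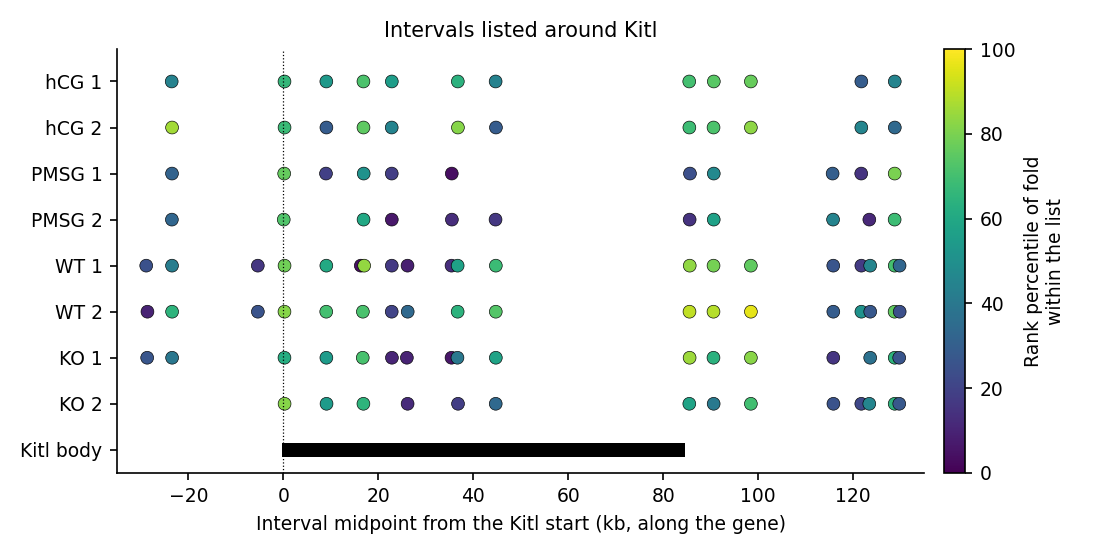
Each point is a listed interval around Kitl, placed by the distance of its midpoint from the Kitl start in kb, 1 row per library, and coloured by the percentile rank of its fold within that list. The black bar is the gene body; at +98.5 and +36.7 kb points stand in the hCG, WT and KO rows and not in the PMSG rows.

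The region in the Kitl body at +16.8 kb, chr10:100032024-100033126, was held by all 8 libraries but differed in width. It covered 874 and 860 bp in hCG against 305 and 369 bp in PMSG, a ratio of 2.57, and 698 and 1045 bp in WT against 1035 and 704 bp in KO. The hCG and PMSG values did not overlap, and the WT and KO values did.

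Gja1, the gene of Cx43, lies at chr10:56377300-56390419 with no other coding gene in its window. Its start region, chr10:56377046-56379356, was the widest of all 69 at 2311 bp, and the sequence printed above is at its left edge. Peaks covered 1937 and 2245 bp of it in hCG, 465 and 683 bp in PMSG, 2180 and 1835 bp in WT and 2064 and 1203 bp in KO. The PMSG libraries covered the least, and the hCG mean of 2091 ± 218 bp was 3.64 times the PMSG mean of 574 ± 154 bp (SD, n = 2). WT and KO overlapped. This width was singled out after the values were seen.

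The narrow peak at the start itself was present in all 8 libraries, with its summit within 18 bases of the start. In hCG, WT and KO libraries a broad block followed inside the gene. It ran from 0.673 to 2.056 kb past the start in hCG replicate 1, from 0.645 to 2.004 kb in WT replicate 2, from 0.803 to 2.056 kb in KO replicate 1 and from 1.198 to 1.867 kb in KO replicate 2. In hCG replicate 2 and WT replicate 1 it was joined to the start peak in 1 interval. PMSG replicate 1 listed no peak in that stretch, and PMSG replicate 2 listed 248 bp from 1.639 to 1.886 kb with a fold of 2.1. The fold at the start was 5.4 and 5.1 in hCG, 7.9 and 8.2 in PMSG, 5.7 and 5.9 in WT and 5.1 and 6.1 in KO. The narrower PMSG peaks thus had the higher folds, at the 38 and 39 percentile of their lists against the 20 and 14 percentile in hCG.

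A region past the end of Gja1, chr10:56390920-56392211 at +14.3 kb, had the opposite order. It covered 455 and 504 bp in hCG against 1110 and 1210 bp in PMSG, a ratio of 0.413, and 1155 and 704 bp in WT against 932 and 1034 bp in KO. These 2 width differences at Gja1 depended on how lists were shortened. With the 55654 intervals of highest fold per list, the start kept 553 and 2245 bp in hCG and 465 and 435 bp in PMSG, 0 and 0 bp in WT and 810 and 1203 bp in KO. The region past the end was then listed in hCG (455 and 504 bp) and KO (932 and 1034 bp) and in neither PMSG nor WT, so both regions were KO-only under that setting. With the same number taken by −log10 q, the start kept 1937 and 2245 bp in hCG, 465 and 435 bp in PMSG and 2180 and 1835 bp in WT, and the region past the end kept all its bases in hCG and PMSG.

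**Figure D4:**
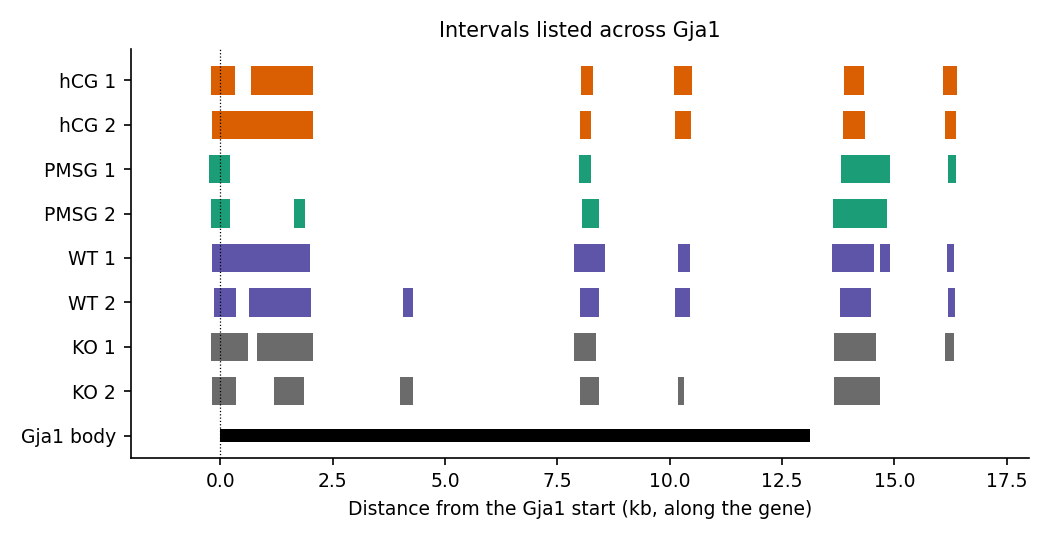
Bars are the listed intervals across Gja1 in each library, to scale, by distance from the Gja1 start in kb, with the gene body as a black bar. A broad block between about 0.6 and 2.1 kb is listed in all hCG, WT and KO libraries, while PMSG replicate 1 has none and PMSG replicate 2 a 248 bp peak; the bar past the gene's end is longest in PMSG.

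The 2 group-only regions at Gja1 had low folds. The hCG-only region in the gene body at +10.3 kb, chr10:56387392-56387803, had a fold of 3.7 and 3.8 in hCG. It was also held by both WT libraries (1.8 and 2.4) and by KO replicate 2 (2.1). At equal list length it was no longer hCG-only by fold and stayed hCG-only by −log10 q. The PMSG-only region at +24.8 kb, chr10:56401783-56402405, had a fold of 5.0 and 5.2 and was also held by both WT libraries and KO replicate 1. It stayed PMSG-only at equal list length by fold and not by −log10 q. The best-ranked region of the window was at −7.9 kb, chr10:56369090-56369657, with a mean percentile of 63.9 and folds from 8.8 to 12.7 in all 8 libraries.

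Gja4, the gene of Cx37, lies at chr4:127311420-127314039. Its start region, chr4:127313631-127314378, was the highest-ranked of the 69 with a mean percentile of 95.6. The fold was 16.2 and 16.2 in hCG, 18.5 and 19.5 in PMSG, 18.2 and 17.9 in WT and 16.2 and 13.7 in KO. It stood above the 95 percentile in 7 lists and at the 88 percentile in KO replicate 2. Peaks covered 707 and 748 bp in hCG, 557 and 542 bp in PMSG, 626 and 719 bp in WT and 625 and 552 bp in KO. Each group on the wider side lay above the other without overlap, by 1 bp in the PR experiment. The only group-only region, WT-only, was at −5.8 kb (chr4:127319774-127319921), with a fold of 7.0 and 7.0, and PMSG replicate 2 also held it at 9.1.

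Gjc1, the gene of Cx45, lies at chr11:102799477-102819686 and shares its window with parts of Adam11, Higd1b and Eftud2. The table of starts used here does not hold it, so its ends were taken. The region over its higher-coordinate end, chr11:102818463-102819871, was the widest of the window at 1409 bp and was held by all 8 libraries. The end base itself was under a peak in 7 libraries, since the interval of KO replicate 2 stopped at 102819660. It covered 1147 and 1243 bp in hCG, 1097 and 1136 bp in PMSG, 1315 and 1176 bp in WT and 1353 and 1063 bp in KO.

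With all peaks the Gjc1 window had no group-only region. In 3 of its regions hCG covered more bases than PMSG, and WT more than KO, without overlap. In 2 of them the ratio was at least 2 in both experiments. Among all regions held by the 4 libraries of an experiment, hCG covered more in 64.2% and WT in 34.8%. The share of all regions with both orders was not computed, so the 3 are described and not read as a trait of Gjc1. At chr11:102749500-102750261, beyond the lower-coordinate end, peaks covered 653 and 697 bp in hCG against 160 and 317 bp in PMSG, a ratio of 2.83. In the PR experiment they covered 555 and 651 bp in WT against 213 and 328 bp in KO, a ratio of 2.23, which was 1.84 without KO replicate 1. This was also the best-ranked region of the window, with a mean percentile of 65.6. The region in Adam11 at chr11:102761112-102762388 covered 1062 and 1227 bp in hCG against 724 and 349 bp in PMSG, a ratio of 2.13. This ratio was 1.58 without PMSG replicate 2, 1.98 without hCG replicate 2 and 3.28 without PMSG replicate 1. The region covered 1203 and 1195 bp in WT against 670 and 184 bp in KO, a ratio of 2.81, which was 1.79 without KO replicate 2 and 6.52 without KO replicate 1. In the third, chr11:102777606-102778123 in Adam11, peaks covered 510 and 420 bp in hCG against 328 and 349 bp in PMSG, a ratio of 1.37, and 515 and 500 bp in WT against 466 and 313 bp in KO, a ratio of 1.30. At equal list length by fold this region was listed only in PMSG and KO, so both directions turned. By −log10 q all 8 libraries still listed it, and neither direction turned.

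Widths were then counted over all regions held by the 4 libraries of an experiment. Of 33 such regions in the LH experiment, both hCG libraries covered more bases than both PMSG libraries in 19 (57.6%), against 64.2% of all regions. They did so by a mean ratio of at least 2 in 4 (12.1%, against 8.87% of all): the Gja1 start, Kitl at +16.8 kb and the 2 Gjc1 regions. Both PMSG libraries covered more in 4 (12.1%, against 11.8%), 1 each at Nppc, Npr2, Kitl and Gja1, and by a ratio of at least 2 in 1 (3.03%, against 1.02%), past the Gja1 end. Of 41 regions in the PR experiment, WT covered more in 19 (46.3%, against 34.8% of all), and by a ratio of at least 2 in the 2 Gjc1 regions (4.88%, against 1.57%), each of which falls below 2 without 1 of the KO libraries. KO covered more in 2 (4.88%, against 5.89%), both at Kitl, and in 0 by a ratio of at least 2 (0.394% of all).

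Summed over a window, Kitl showed the largest ratio of hCG to PMSG and Gjc1 the largest ratio of WT to KO among the 6. Peaks at Kitl covered 5.89 ± 0.112 kb in hCG, 4.05 ± 0.295 kb in PMSG, 8.43 ± 0.223 kb in WT and 7.58 ± 1.71 kb in KO (SD, n = 2). The hCG to PMSG ratio was 1.45 at Kitl, 1.28 at Gjc1, 1.20 at Nppc, 1.19 at Gja1, 1.16 at Gja4 and 1.14 at Npr2, against 1.29 for the whole lists. The WT to KO ratio was 1.45 at Gjc1, 1.32 at Gja4, 1.20 at Nppc, 1.18 at Npr2, 1.18 at Gja1 and 1.11 at Kitl, against 1.24 for the whole lists. At Kitl, KO replicate 1 (8.79 kb) lay above both WT libraries (8.28 and 8.59 kb), so the order there rests on KO replicate 2. At Gja1, KO replicate 1 (6.37 kb) lay between the WT libraries (7.13 and 5.94 kb). Ratios per gene at equal list length were not computed. Covered sequence at Gjc1 was 5.45 ± 0.0735 kb in WT and 3.75 ± 0.701 kb in KO (SD, n = 2).

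**Figure D5:**
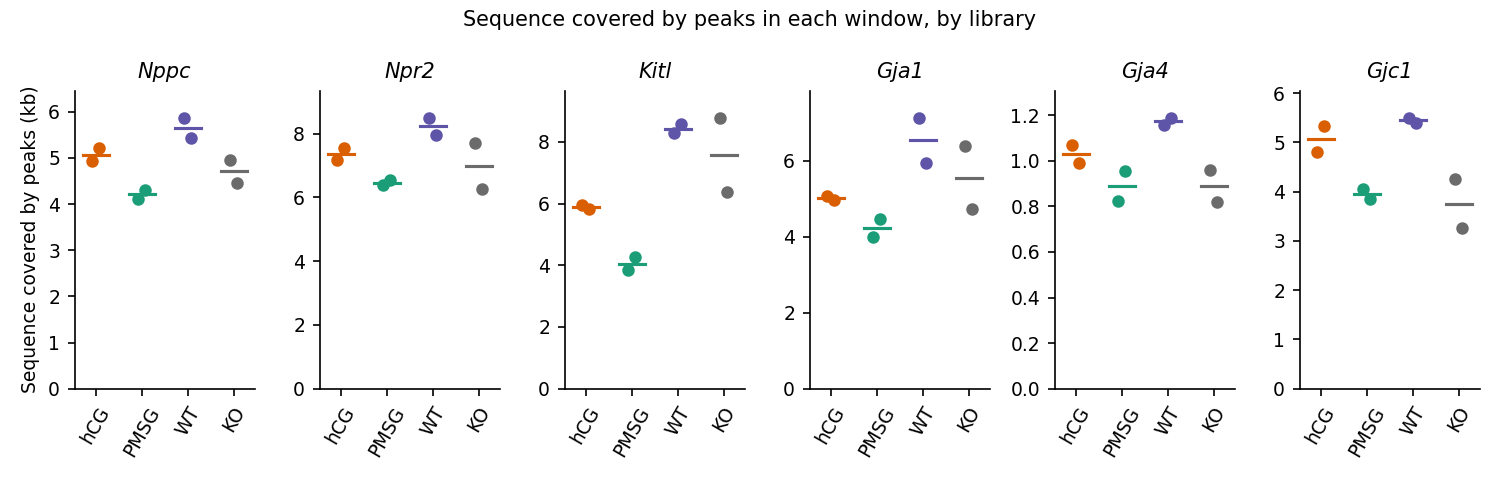
Points give the sequence covered by peaks in each gene's window in kb for each library, and horizontal lines the group mean of 2 libraries; the vertical scales start at 0 and differ between genes. At Kitl the hCG points lie near 5.9 kb and the PMSG points near 4 kb, and the KO points at 8.79 and 6.37 kb.

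Over the 6 windows together, the hCG libraries held 46 and 46 intervals and the PMSG libraries 45 and 47, a difference in means of 0 (exact permutation test, two-sided, p = 1, adjusted 1). WT held 63 and 61 intervals and KO 52 and 45, a difference of 13.5 (exact permutation p = 0.333, adjusted 0.444). Covered sequence was 29.4 ± 0.584 kb in hCG and 23.8 ± 0.851 kb in PMSG (SD, n = 2; exact permutation p = 0.333, adjusted 0.444). It was 35.5 ± 1.37 kb in WT and 29.4 ± 5.05 kb in KO (SD, n = 2, exact permutation p = 0.333, adjusted 0.444). The hCG to PMSG ratio of covered sequence was 1.24 over the 6 windows and 1.29 over the whole lists. For WT to KO it was 1.20 and 1.24. Whole lists held on average 63947 intervals in hCG, 58386 in PMSG, 82225 in WT and 57252.5 in KO. The ratios were near those of the whole lists, so these differences are no result about the 6 genes. With 2 libraries against 2 this two-sided test cannot give a p under 0.333, so it cannot pass a threshold of 0.05. At equal list length the WT minus KO difference in intervals turned to −10.5 by fold and −7.5 by −log10 q, and the difference in covered bases turned from 6026 to −2563 by fold and was 114.5 by −log10 q. Without KO replicate 2 the difference in covered bases was 2458.

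Other genes of the same pathways were described by the presence of peaks. Of 13 genes that set cyclic GMP and cyclic AMP in the follicle, 10 had a peak over the start in all 8 libraries; Nppa, Nppb and Pde3a had none. Nppa and Nppb encode the other natriuretic peptides, and Pde3a the phosphodiesterase of the oocyte. An hCG-only region lay in the windows of 9 of the 13, a PMSG-only region in 8, a WT-only region in 9 and a KO-only region in 0. Over all coding genes, 54.6% had an hCG-only region in the window, 35.9% a PMSG-only, 50.7% a WT-only and 0.453% a KO-only region. The median window held 8 regions over all coding genes but 15 in this list, 16 in each of the KIT and the junction partner lists and 4 in the connexin list below, and a window with more regions has more chances to hold a group-only region. Of 8 genes of KIT and oocyte-granulosa signalling, 6 had a peak over the start in all 8 libraries, and 5, 4, 6 and 0 had such regions in the same order.

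Of 18 other connexin and pannexin genes, Gja3, Gja5, Gjb2, Gjd4 and Panx1 had a peak over the start in all 8 libraries and the other 13 in none. For Gjd4, whose start is not in the table, a peak over either gene end was counted. Among the 18 genes, 7 had an hCG-only, 5 a PMSG-only, 6 a WT-only and 0 a KO-only region in the window. The WT-only region of Gjb5 is the one at Gja4. Of 9 genes of junction partners and kinases that act on connexins, such as Tjp1 and Src, 7 had a peak over the start in all 8 libraries. All 9 had an hCG-only region, 5 a PMSG-only, 8 a WT-only and 0 a KO-only region. The members themselves had an hCG-only region in 4 of 6 windows (54.6% of all coding genes), a PMSG-only region in 4 (35.9%) and a WT-only region in 4 (50.7%). Their windows held 3 to 19 regions, in 4 of the 6 more than the median of 8, so the same limit applies to them.

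As a last description, each member's covered sequence was taken as a share of its library's total and compared with that of all other genes over the 8 libraries. The most alike gene was Cspg5 for Nppc (Pearson r = 0.976), Pla2g6 for Npr2 (0.983), Tmem178 for Kitl (0.983), Zkscan7 for Gja1 (0.950), Cdca2 for Gja4 (0.964) and Krt73 for Gjc1 (0.982). The next 2 were Drd4 and Pcolce for Nppc, Eftud2 and Higd1b for Npr2, Ppp4r4 and Ckap2l for Kitl, Zfp445 and Isl2 for Gja1, Ltb4r1 and Tcp10a for Gja4, and Krt2 and Hivep2 for Gjc1. Eftud2 and Higd1b lie in the window of Gjc1. Between 10 genes (Gja1) and 245 genes (Npr2) had r above 0.9, and the 8 points differ in strain, list length and group and fall into pairs of 1 group, so no p was computed.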

How the data were processed

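ATAC-seq peak lists of 8 libraries were used, 1 per library, as the authors deposited them; replicates were called apart. Per the submitters' processing notes, Bowtie2, MACS2 and build mm10 (GRCm38) were used; versions, filters and any shift of reads for the Tn5 cut are not given in the sources used here. Peak names in the PR lists mention filtering and marked duplicates and those in the LH lists do not. The authors' fold enrichment at a summit is a linear ratio to the background their peak caller estimated. The deposited lists also give a −log10 q-value, 10 or more for every peak. Neither carries read numbers, so no counting interval can be given.

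Summits sharing an interval were collapsed to the best fold and best −log10 q, on chromosomes 1 to 19 and X. Intervals of the 8 lists sharing 1 bp or more were merged into regions. Ranks are percentiles of fold within a list. Genes, starts and promoter sequences are from RefSeq tables of GRCm38.p6; 5 of 6 members matched the promoter table, and exons and introns were not told apart here. For genes without a start in the table, either gene end counted as the start. Totals per library were tested by exact permutation, with Benjamini-Hochberg adjustment over 4 tests. Regions described singly were those over starts, the widest and best ranked of each window and all group-only regions; other regions were named after their values were seen. Part of the connexin list is not reported here. Members and gene lists were chosen with earlier results of these data known. Alternatives were the same number of intervals per list, a −log10 q of 20 or more, a flank of 10 kb, peaks covering 50% of a region, merging within an experiment, leaving out each library and a replicate block. Scripts (Python 3.11.15, NumPy 2.4.6, pandas 2.3.3, SciPy 1.17.1, Matplotlib 3.10.9) were tested on simulated data.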

Additional observations from a re-analysis of the deposited data

How the results depend on the processing

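The 6 hCG-only regions became 2 with a flank of 10 kb and 10 when peaks had to cover 50% of a region, and were 7 to 9 when single libraries were left out. The 5 PMSG-only regions became 8 at the same number of intervals per list by fold and 1 with a flank of 10 kb, and 6 to 9 with a library left out (9 without PMSG replicate 1). The 6 WT-only regions became 1 at the same number of intervals by fold, 1 by −log10 q and 2 with a flank of 10 kb, and 8 to 14 with a library left out (14 without KO replicate 1). The 0 KO-only regions became 5 by fold and 3 by −log10 q, all held by both WT libraries in the full lists, and stayed 0 with a library left out. Fewer regions enter with the shorter flank. Leaving out a library eases the call, as the other library of its group then decides alone. Equal list length cuts the WT lists most and KO replicate 2 not at all. How much of each change came from these rules was not tested.

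The difference of 0 intervals between hCG and PMSG became −3.5 at the same number by fold, −2.5 by −log10 q, 4 with a −log10 q of 20 or more and 1.5 with a flank of 10 kb, and −1 to 1 with a library left out. The WT minus KO difference of 13.5 intervals turned to −10.5 by fold and −7.5 by −log10 q, and was 10 to 17 with a library left out. The hCG minus PMSG difference in covered bases, 5640.5, kept its sign in all alternatives run (5039 to 6242 with a library left out). Its hCG to PMSG ratio of 1.24 was near the 1.29 of the whole lists. The WT minus KO difference of 6026 bases turned to −2563 by fold, was 114.5 by −log10 q and 2458 to 9594 with a library left out. The hCG minus PMSG difference over the Gja1 start, 1517 bp, was 949 bp by fold and 1641 bp by −log10 q; past the Gja1 end −680.5 bp turned to 479.5 bp by fold. The replicate block, pairing libraries by number, left the differences at 0, 13.5, 5640.5 and 6026, with exact sign-flip p of 1, 0.5, 0.5 and 0.5 (0.5 is the smallest that 2 pairs allow); nothing in the labels says that the numbers pair libraries, and 2 pairs were too few to check it.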
